A study of Bos taurus with 8 samples.

Results

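The genes described here are 10 genes of excitation-contraction coupling and of the calcium store: *CACNA1S*, *CACNB1*, *CACNG1*, *STAC3*, *RYR1*, *JPH1*, *JPH2*, *ATP2A1*, *ATP2A2* and *CASQ2*. They were chosen by name, with earlier results of these data known, and all 10 were found among the 18871 named genes of the deposited table. RNA-seq had been done on 8 preadipocyte clones of cattle, each grown by single-cell cloning of the stromal vascular fraction (SVF), 4 from intramuscular fat (IMF1 to IMF4) and 4 from subcutaneous fat (SF1 to SF4). The donors were adult Angus-cross steers, 5 of them according to the labels, while the paper's methods give another number. Within each depot every clone came from a different SVF sample. Each clone was meant to stand for 1 founder cell, plated at a dilution that aimed at no more than 1 cell per well. The clones sequenced were picked because they looked like fibroblasts, formed fat readily and grew fast. By the paper's methods RNA was collected from growing cells near confluence, whereas the text deposited with the data places adipogenic induction before sequencing. The comparison asks how preadipocytes of the 2 depots differ.

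In skeletal muscle, an action potential runs down the T-tubule and moves a voltage sensor, a calcium channel of which CACNA1S is the pore-forming subunit. The sensor opens the ryanodine receptor RYR1 in the facing membrane of the sarcoplasmic reticulum, junctophilins hold the facing membranes together, and calcium leaves the store. Pumps of the SERCA family, encoded by *ATP2A* genes, return calcium to the store, where calsequestrin binds it. Cells outside muscle also keep calcium in the endoplasmic reticulum, but refill it mainly with SERCA2 and release it through IP3 receptors.

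Total counts ranged from 19654917 to 29308882 per clone, and the floor of 3 counts corresponded to between 0.0981 and 0.165 CPM, counting error only. CPM is the count scaled to the TMM-adjusted library size, and TPM also divides by gene length, so that only TPM was used to set one gene beside another. To pass, a gene needed an adjusted p under 0.05 in edgeR's quasi-likelihood test together with a change of at least 1 on the log2 scale in either direction. Marker counts are read against 8.82% of all genes passing, 4.78% as higher and 4.04% as lower in IMF. Of 11 preadipocyte and stromal markers, 1 was higher and 3 were lower in IMF. The 3 lower were *COL1A1* (log2 fold change -1.28), *PPARG* (-1.35) and *THY1* (-1.30). The higher one was *CD34*, which had at most 2 counts in any SF clone. *PDGFRA* had 184 ± 2.84 CPM in the IMF clones against 131 ± 23.2 (SD, n = 4 each) and did not pass (log2 fold change 0.49). Markers of other cell types moved with the groups. All 7 tested satellite cell and myoblast markers were higher in IMF, with a summed level of 523 to 585 CPM against 0.701 to 9.86 CPM in SF, and *MYOD1* and *MYOG* were at 0 counts in every SF clone. Skeletal sarcomere genes were higher in 8 of 9 (306 to 407 against 0.528 to 0.937 CPM). Endothelial markers were higher in 8 of 9 (174 to 218 against 27.3 to 38.1 CPM), and *KDR*, *EMCN* and *SELE* were at 0 counts in SF. Of 4 tested cardiomyocyte markers, *TNNT2* alone passed, as higher (summed level 26.7 to 33.5 against 0.851 to 12.4 CPM). *NKX2-5* had at most 3 counts in an IMF clone and 7, 4, 4 and 44 in SF1 to SF4, and was called lower in IMF by DESeq2 (adjusted p = 0.0254) but not by edgeR (0.0877). *TNNI3* had 8 to 62 counts in the IMF clones and 12 to 177 in the SF clones. Of 4 tested leukocyte markers, 1 was higher and 1 was lower (17.3 to 38.7 against 45.2 to 76.3 CPM). Smooth muscle markers were lower in 4 of 7 and higher in 1 (2285 to 2523 CPM in IMF, 3227 to 11411 CPM in SF). The part of any of these in the results that follow was not tested.

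Of the 10 genes, 6 were higher in the IMF clones, 0 were lower and 4 did not pass. Over all 18339 genes tested, 8.82% passed, 4.78% as higher and 4.04% as lower in IMF. An adjusted p under 0.05 alone was reached by 7 of the 10, the seventh being *ATP2A2*, and by 25.8% of all genes. The 6 genes were *CACNA1S*, *STAC3*, *RYR1*, *JPH1*, *ATP2A1* and *CASQ2*. For all 6 the lowest IMF clone exceeded the highest SF clone, which held for 18% of all genes tested; the reverse held for *ATP2A2* and for 14.1% of all genes. Groups without overlap in either direction made up 32.1% of all genes. The median log2 fold change of the 10 genes was 1.87 against -0.03 over all genes. It lies midway between *CASQ2* and *CACNG1*, whose fitted value rests on 20 counts, and was 2.35 over the 9 genes without *CACNG1*. In bulk RNA, fewer cells that express a gene and less RNA per cell cannot be told apart, although the cloning aimed at 1 cell per culture.

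**Figure D1:**
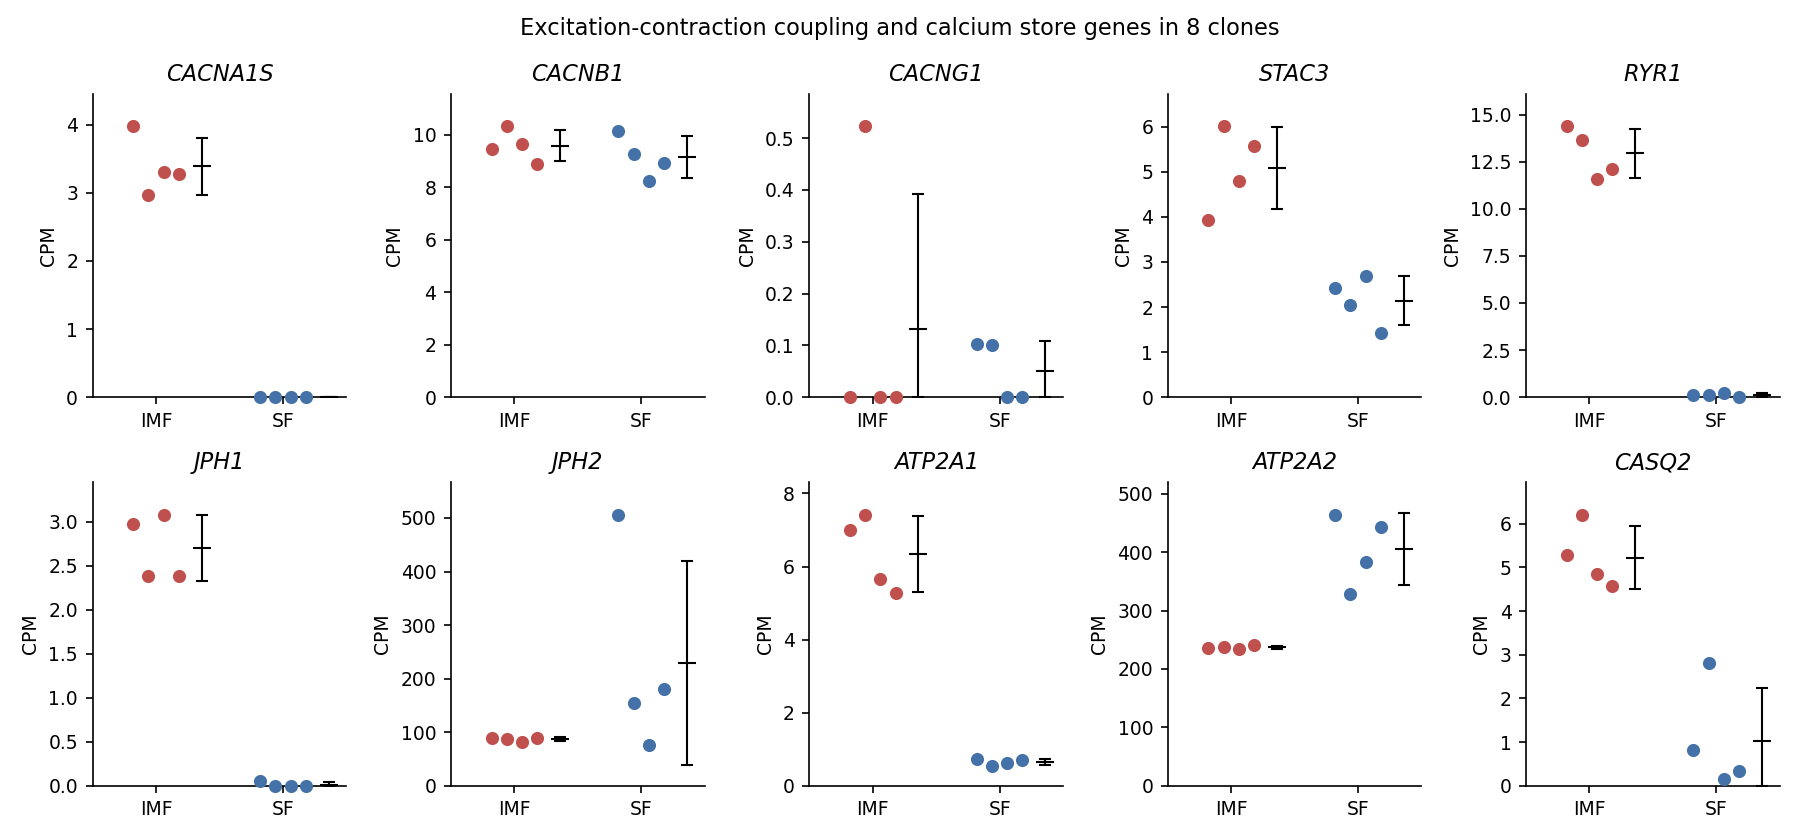
Level of each gene in CPM (linear axis from 0) in the 4 IMF clones (red) and the 4 SF clones (blue), with the mean and SD beside each group (the lower arm stops at 0). RYR1, CACNA1S, JPH1 and ATP2A1 separate the groups, CACNB1 and CACNG1 overlap, and JPH2 is highest in SF1, at 506 CPM.

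Within the voltage sensor, the pore gene and the adaptor gene were higher in IMF and the beta-1 gene was not. *CACNA1S* (gene ID 100337204, chromosome 16, 79601791 to 79658538 in ARS-UCD2.0) encodes the pore and the voltage-sensing part. It had 83, 91, 73 and 69 counts in IMF1 to IMF4 and 0 counts in all 4 SF clones. The groups did not touch, and within IMF the levels ran only from 2.98 to 3.98 CPM. Set against the floor of 3 counts in each SF clone, *CACNA1S* was at least 22.9-fold higher in IMF (adjusted p = 0.000192, edgeR).

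*CACNB1* (chromosome 19, 39672425 to 39693377) encodes the beta-1 subunit, which brings the pore to the membrane. Its level was 9.45, 10.3, 9.66 and 8.90 CPM in IMF1 to IMF4 and 10.2, 9.26, 8.24 and 8.93 CPM in SF1 to SF4. The groups overlapped throughout. The log2 fold change of 0.07 had a 95% interval from -0.16 to 0.30 (adjusted p = 0.67), which leaves out a change of the size required for a call in either direction. Its means were 9.59 ± 0.593 and 9.15 ± 0.8 CPM (SD, n = 4 each).

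*CACNG1* (chromosome 19, 63125526 to 63133136) encodes the gamma-1 subunit, which in muscle dampens the channel current. It was barely detected. It had 16 counts in IMF2 and 0 in the other 3 IMF clones, 2 counts each in SF1 and SF2, and 0 in SF3 and SF4. All 8 counts are even numbers, which holds for 8.6% of the genes tested, and its total of 20 counts only just met the minimum for testing. No fold change is given for it, and no difference was detectable at this depth (adjusted p = 0.604).

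*STAC3* (chromosome 5, 56193522 to 56199668) encodes an adaptor that joins the voltage sensor to its partners at the junction. It had 3.93, 6.02, 4.81 and 5.57 CPM in the IMF clones and 2.41, 2.05, 2.68 and 1.43 CPM in the SF clones. Every IMF clone was above every SF clone, but the SF clones were well above the floor, with 26 to 66 counts. It rose by a log2 fold change of 1.24 (adjusted p = 0.00621, standard error 0.24). A fold change of at least 2 was not shown, since the interval of the log2 value ran from 0.70 to 1.78 and glmTreat, edgeR's test of whether a change exceeds 1 on the log2 scale, gave an adjusted p of 0.748. That test called 3.44% of all genes, 2.6% as higher and 0.845% as lower.

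*RYR1* (gene ID 100139857, chromosome 18, 48236525 to 48365358) encodes the skeletal calcium release channel. The IMF clones had 14.4, 13.7, 11.6 and 12.1 CPM, and the SF clones had 0.103, 0.1, 0.243 and 0 CPM. In counts this was 255 to 418 in an IMF clone and 2, 2, 6 and 0 in SF1 to SF4, so only SF3 exceeded the floor. *RYR1* rose by a log2 fold change of 6.70 (adjusted p = 2.99e-05, standard error 0.44), and the mean levels were 13.0 ± 1.30 and 0.112 ± 0.1 CPM (SD, n = 4 each). Removing any single clone other than SF3 gave values between 6.34 and 6.73. Without SF3 the other SF clones were all at or under the floor, and *RYR1* was at least 82.8-fold higher in IMF.

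Of the junctophilin genes, one passed and one did not. *JPH1* (chromosome 14, 37502881 to 37595465) encodes the junctophilin typical of skeletal muscle. It had 62, 73, 68 and 50 counts in IMF1 to IMF4, 1 count in SF1 and 0 in SF2, SF3 and SF4. It was at least 18.3-fold higher in IMF against the floor (adjusted p = 0.00013, edgeR), with 2.71 ± 0.375 CPM in IMF (SD, n = 4).

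*JPH2* (chromosome 13, 72584156 to 72659181) encodes the junctophilin found in cardiac, skeletal and smooth muscle. It had 88.7, 87.3, 82.0 and 89.2 CPM in the IMF clones, a coefficient of variation of 3.81%. The SF clones had 506, 154, 76.1 and 180 CPM, a coefficient of variation of 82.9%. SF3 lay below every IMF clone and the other SF clones lay above them. The log2 fold change was -1.40 (95% interval -2.54 to -0.26) and the adjusted p was 0.0731, so *JPH2* did not pass. DESeq2 called it lower in IMF (adjusted p = 0.0169); it called 10.9% of all genes, 5.33% as higher and 5.56% as lower. So did edgeR without SF3 (log2 fold change -1.73, adjusted p = 0.0199), a fit that called 8.87%, 4.61% as higher and 4.26% as lower. Without SF1 the log2 fold change was -0.66.

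Of the 7 smooth muscle markers, 2 (*ACTA2* and *LMOD1*) ranked the SF clones in the same order as *JPH2* and 5 did not, and SF1 was the highest SF clone in 6. *MYOCD*, the exception, was highest among SF clones in SF2 and ranged from 4.48 to 37.3 CPM in IMF. *ACTA2*, smooth muscle actin, had 6491, 2057, 1079 and 3976 CPM in SF1 to SF4 and from 988 to 1120 CPM in the IMF clones. *CNN1*, calponin, had 839, 202, 258 and 392 CPM in SF1 to SF4 and 96.4 to 112 CPM in IMF, with SF1 again highest and SF2 lowest. *ACTA2* and *CNN1* are given because the plot shows them, and were chosen after their values were seen. The part of smooth muscle genes in the spread of *JPH2* was not tested.

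**Figure D2:**
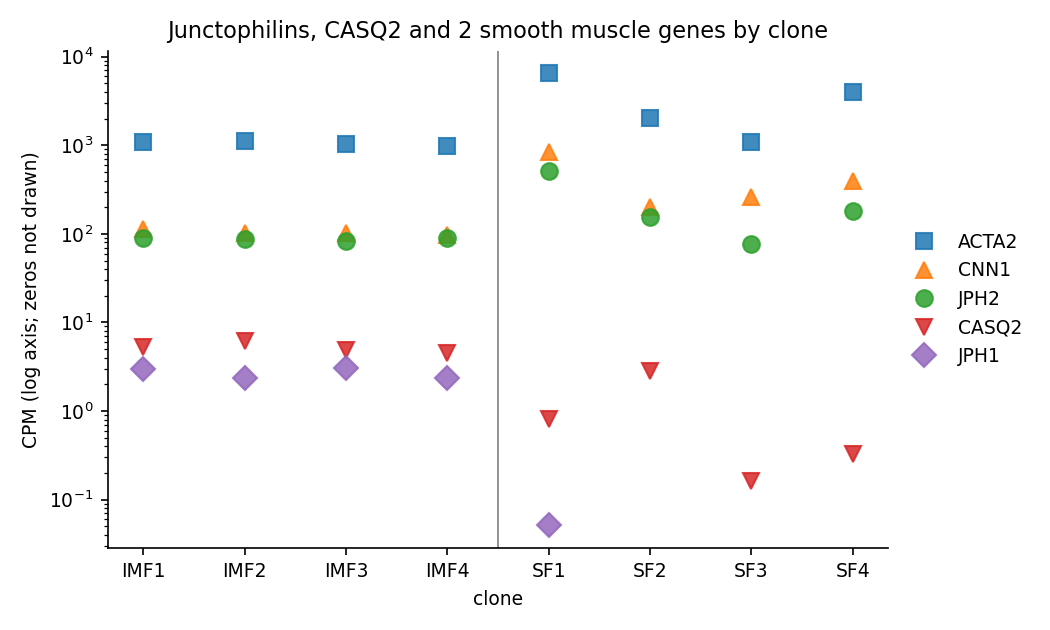
CPM on a log axis for JPH1, JPH2, CASQ2 and the smooth muscle genes ACTA2 and CNN1 in each clone (counts of 0 are not drawn). JPH2 and ACTA2 are flat over the IMF clones and run in the same order over the SF clones, with JPH2 at 506 CPM in SF1 and 76.1 CPM in SF3. CASQ2 is highest among SF clones in SF2, and JPH1 appears in SF1 alone among them.

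Of the calcium pump genes, one passed and the other differed by less than the fold threshold. *ATP2A1* (gene ID 518117, chromosome 25, 25929252 to 25946606) encodes SERCA1, the pump of fast skeletal fibres. Its level was 7.00, 7.42, 5.67 and 5.28 CPM in the IMF clones and 0.719, 0.551, 0.609 and 0.716 CPM in the SF clones. The groups were far apart and the SF clones were even, at 11 to 15 counts. *ATP2A1* rose by a log2 fold change of 3.28 (adjusted p = 2.15e-05, standard error 0.20). *ATP2A1* overlaps *RABEP2* in RefSeq, and the latter had 19.6 ± 2.41 CPM in the IMF clones against 24.8 ± 3.06 (SD, n = 4 each). The sources differ on whether the libraries keep strand, so reads of overlapping genes may have been shared.

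*ATP2A2* (chromosome 17, 54211193 to 54268644) encodes SERCA2, the pump of cardiac and slow muscle and of most other cells. The IMF clones had 236, 238, 234 and 241 CPM and the SF clones had 465, 329, 384 and 444 CPM. Every SF clone was above every IMF clone. Its log2 fold change of -0.77 (adjusted p = 0.00194, standard error 0.12) fell short of the fold threshold, so it was not called. An adjusted p under 0.05 with a lower level in IMF was found for 11.4% of all genes tested. The overlapping gene *ANAPC7* had 37.2 ± 1.78 CPM in the IMF clones against 35.6 ± 0.839 (SD, n = 4 each).

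*CASQ2* (chromosome 3, 27540618 to 27611174) encodes the calsequestrin of cardiac and slow skeletal muscle. It had 5.28, 6.21, 4.85 and 4.57 CPM in the IMF clones and 0.821, 2.80, 0.162 and 0.331 CPM in the SF clones. SF2 was the highest SF clone, with 56 counts against 4 to 16 in the others, and still lay below every IMF clone. *CASQ2* rose by a log2 fold change of 2.35 (adjusted p = 0.0438, standard error 0.72). This call was narrow. It was lost when any one of IMF1, IMF2, IMF3, IMF4, SF1, SF3 or SF4 was left out (adjusted p from 0.0589 to 0.0937), and kept without SF2 (log2 fold change 3.59, adjusted p = 0.00257), a fit that called 8.53% of all genes, 4.56% as higher and 3.97% as lower. It was also lost with glmTreat (adjusted p = 0.424).

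**Figure D3:**
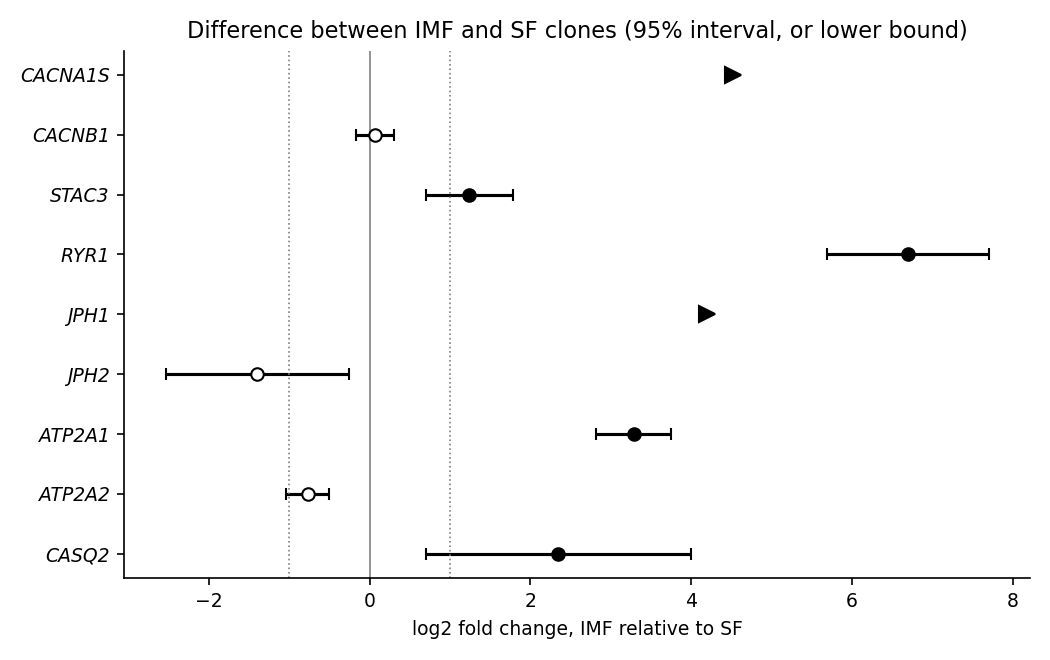
Log2 fold change of IMF relative to SF for 9 of the 10 genes (CACNG1 has too few counts). Circles with bars give the edgeR estimate and its 95% interval, filled where the gene passed; triangles give the lower bound for CACNA1S and JPH1 against 3 counts per SF clone; dotted lines mark log2 fold changes of 1 and -1. RYR1 stands at 6.70, ATP2A1 at 3.28, and CACNB1 at 0.07.

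The genes that rose in IMF were not abundant there. By mean TPM, *ATP2A2* (49.0 ± 2.99) and *JPH2* (32.9 ± 1.92; SD, n = 4 each) led in IMF, above 90.2% and 85.6% of the genes tested. A second tier held *CASQ2* (3.30 TPM), *ATP2A1* (3.00 TPM), *CACNB1* (2.53 TPM) and *STAC3* (2.41 TPM), whose neighbouring ranges overlapped. *RYR1* followed at 1.42 TPM, clear of both neighbours, and then *CACNA1S* (0.948 TPM) and *JPH1* (0.871 TPM), which overlapped each other. These last 3 genes were between percentiles 23.2 and 29.1 of the genes tested. In SF, *JPH2* (84.7 ± 69.4 TPM) and *ATP2A2* (82.1 ± 8.30 TPM) overlapped at the top. *CACNB1* (2.38 TPM) stood alone behind them, and *STAC3* (1.02 TPM) overlapped with *CASQ2* (0.674 TPM), which overlapped with *ATP2A1* (0.301 TPM). *RYR1*, *JPH1*, *CACNA1S* and *CACNG1* had means at or under 0.0713 TPM.

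Several of the proteins have close relatives that can take their place in other tissues, so the share of one paralogue in its family was computed within each clone from TPM. All 5 shares were higher in every IMF clone than in every SF clone; a gene's own CPM separated the groups in this direction for 18% of all genes. The shares are made from the same counts as the fits. Those of *RYR1*, *JPH1*, *ATP2A1* and *CASQ2* restate separations of the genes themselves and are given as descriptions. For *CACNB1*, whose own levels overlapped, the two-sided exact permutation test over 70 splits gave p = 0.0286, the smallest possible, and 0.0286 after adjustment over the 5 shares computed. However, *CACNB3*, the largest member of that family by TPM in every clone, itself separated the groups (11.4 to 13.1 CPM in IMF, 22.1 to 41.0 CPM in SF). The *CACNB1* share restates that separation, so its p adds no support and the share is also a description. *RYR1* took 48.3%, 69.6%, 48.0% and 47.9% of ryanodine receptor TPM in IMF1 to IMF4, and 0.773%, 1.02%, 3.09% and 0% in SF1 to SF4. The neuronal and cardiac type, *RYR2*, was present in both groups, at 8.02 ± 4.79 CPM in the IMF clones against 12.6 ± 4.44 (SD, n = 4 each), and was lowest in IMF2, at 1.54 CPM.

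*CASQ2* took 53.4 ± 4.86% of calsequestrin TPM in IMF and 7.05 ± 8.74% in SF (SD, n = 4 each). Both parts of that ratio moved. *CASQ1*, the fast-muscle calsequestrin, was lower in IMF (2.78 to 3.76 CPM, against 7.10 to 17.2 CPM; adjusted p = 0.00749, log2 fold change -1.59 with a standard error of 0.32). *CACNB1* took 38.5 ± 1.31% of beta-subunit TPM in IMF and 23.4 ± 2.88% in SF. *CACNB1* itself overlapped between the groups, whereas *CACNB3*, the beta subunit common outside muscle, had 12.4 ± 0.828 CPM in the IMF clones against 28.4 ± 8.57.

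The other shares were small even in IMF. *ATP2A1* took 5.15 ± 0.977% of SERCA TPM in IMF and 0.326 ± 0.00965% in SF. In TPM, *ATP2A1* was below *ATP2A2* in every clone, and below *ATP2A3* in every clone but IMF2. *JPH1* took 2.56 ± 0.416% of the TPM of *JPH1* and *JPH2* in IMF, and at most 0.00852% in an SF clone. The junctophilin transcripts of both depots were thus almost all *JPH2*.

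**Figure D4:**
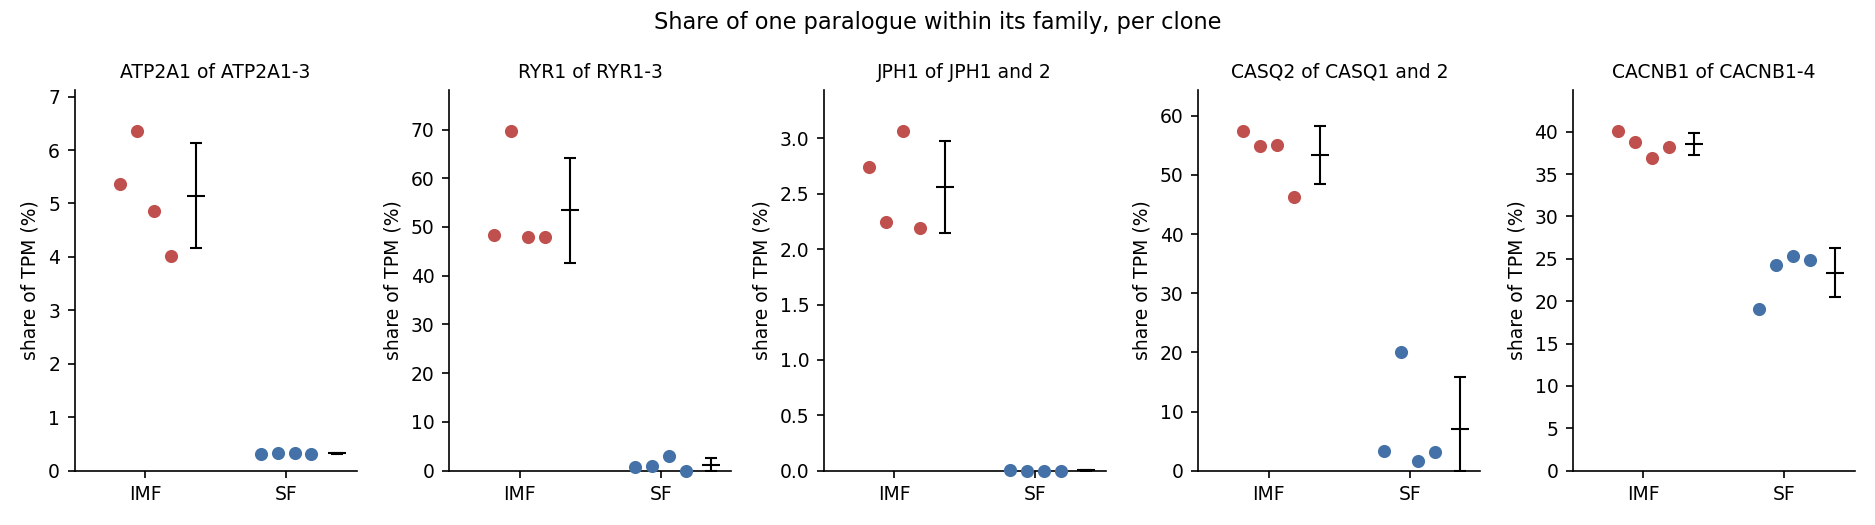
Share of TPM (%, axis from 0) held by one paralogue within its family in the IMF clones (red) and the SF clones (blue), with mean and SD (the lower arm stops at 0). RYR1 holds 47.9% to 69.6% in IMF and at most 3.09% in SF, while ATP2A1 and JPH1 hold at most 6.35% and 3.07% in any clone.

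The wider calcium pathway was followed through 57 further genes in 7 groups, also chosen with earlier results known, of which 45 were tested. Of these, 9 were higher and 3 were lower in IMF, or 26.7% against 8.82% of all genes (4.78% as higher and 4.04% as lower). The counts per group below are read against the same shares, and a single call is not read as a result about its group. Their median log2 fold change was 0.13, and 33 of the 45 did not pass. With glmTreat, 7 were higher and 0 were lower: *RYR3*, *S100A1*, *CACNB3*, *CASQ1* and *STIM1* no longer passed (adjusted p from 0.131 to 1). Over all genes glmTreat called 3.44%, 2.6% as higher and 0.845% as lower.

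Among 11 tested release channel and partner genes, 4 were higher and 0 lower in IMF. *JSRP1*, which encodes JP45, a protein of the junctional store membrane that binds the voltage sensor, had 4.90 to 5.28 CPM in the IMF clones and at most 0.3 in an SF clone (adjusted p = 0.000168, log2 fold change 4.72 with a standard error of 0.43). *HOMER1*, a scaffold protein, had a log2 fold change of 1.90 (13.4 ± 0.378 against 3.60 ± 0.5 CPM). *S100A1*, a small calcium-binding modulator of the channel, had a log2 fold change of 2.24 (adjusted p = 0.0102). *RYR3*, the ryanodine receptor of immature muscle, had 4.51, 4.68, 6.03 and 4.62 CPM in IMF and 2.67, 0.35, 0.487 and 0.441 CPM in SF, with SF1 the highest SF clone. Its log2 fold change of 2.33 had an adjusted p of 0.0269, which exceeded 0.05 when any clone but SF1 was left out (0.0506 to 0.073). Without SF1 the log2 fold change was 3.52 (adjusted p = 6.73e-05). Among those that did not pass, *FKBP1A*, which binds the channel, had 353 ± 12.1 CPM in the IMF clones against 349 ± 30.9 (SD, n = 4 each).

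Junctional and T-tubule membrane genes were higher in 3 of 7 and lower in 0. *CAV3*, the muscle caveolin, had 138 to 278 counts in the IMF clones and 0 counts throughout SF, which makes it at least 55.1-fold higher (adjusted p = 6.33e-05). *TRIM72*, a membrane repair protein of muscle, was at least 80.6-fold higher, with at most 2 counts in an SF clone. *BIN1*, which bends membrane into T-tubules, was expressed in both groups (147 ± 5.82 against 46.5 ± 10.2 CPM, SD, n = 4 each; adjusted p = 0.000154, log2 fold change 1.66 with a standard error of 0.15). *DNM2* had a log2 fold change of 0.19 (adjusted p = 0.121), and *DYSF*, dysferlin, had 0.70 (adjusted p = 0.171).

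In the store lumen, 1 of 6 genes was higher and 1 was lower. *SRL*, sarcalumenin, which binds calcium beside the pump, had 52.5 ± 4.37 against 9.52 ± 2.18 CPM (adjusted p = 3.38e-05, log2 fold change 2.46 with a standard error of 0.17). By TPM it stood above *CASQ2* in IMF, at 18.2 TPM against 3.30 TPM. The lower gene was *CASQ1*. *CALR*, calreticulin, the general calcium buffer of the endoplasmic reticulum, had 519 TPM in IMF and 380 TPM in SF, with a log2 fold change of 0.43 (adjusted p = 0.00998) that did not reach the fold threshold. *TMEM38B*, a counter-ion channel, had a log2 fold change of -0.04 (adjusted p = 0.9).

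Neither of the 2 tested pump and regulator genes passed. *ATP2A3*, SERCA3, had a log2 fold change of -0.64 (adjusted p = 0.318), and *PLN*, phospholamban, had -0.22 (adjusted p = 0.791), from 10 to 41 counts per clone.

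Outside the junction, 1 of 8 genes of IP3-linked release and store-operated entry passed. *STIM1*, the store sensor, was lower in IMF (24.3 ± 0.855 against 51.5 ± 12.6 CPM; adjusted p = 0.00147, log2 fold change -1.08 with a standard error of 0.15), although its change was smaller than the fold threshold without SF1 (-0.90). *ITPR1*, an IP3 receptor, had 54.8 to 57.8 CPM in the IMF clones and 180, 21.1, 52.7 and 70.6 CPM in SF1 to SF4, so that the groups overlapped (adjusted p = 0.523). *ORAI3*, an entry channel, had a log2 fold change of -0.19 (adjusted p = 0.279).

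At the plasma membrane, 1 of 5 genes passed, or 20% against 8.82% of all genes. *SLC8A3*, a sodium-calcium exchanger of skeletal muscle and brain, had 77 to 150 counts in the IMF clones and 2 or fewer in each SF clone, which makes it at least 29.3-fold higher (adjusted p = 0.00013). The calcium pumps *ATP2B1* (log2 fold change 0.57, adjusted p = 0.0494) and *ATP2B4* (-0.19, adjusted p = 0.187) did not pass.

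Among voltage sensor relatives, 0 of 6 genes were higher and 1, *CACNB3*, was lower (adjusted p = 0.00256, log2 fold change -1.19 with a standard error of 0.19). Without SF1, its log2 fold change of -0.96 was under the fold threshold. *CACNA2D1*, the accessory subunit shared by many calcium channels, had a log2 fold change of -0.30 (adjusted p = 0.0165), and *CACNA1D*, another pore subunit, had -0.76 (adjusted p = 0.343).

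**Figure D5:**
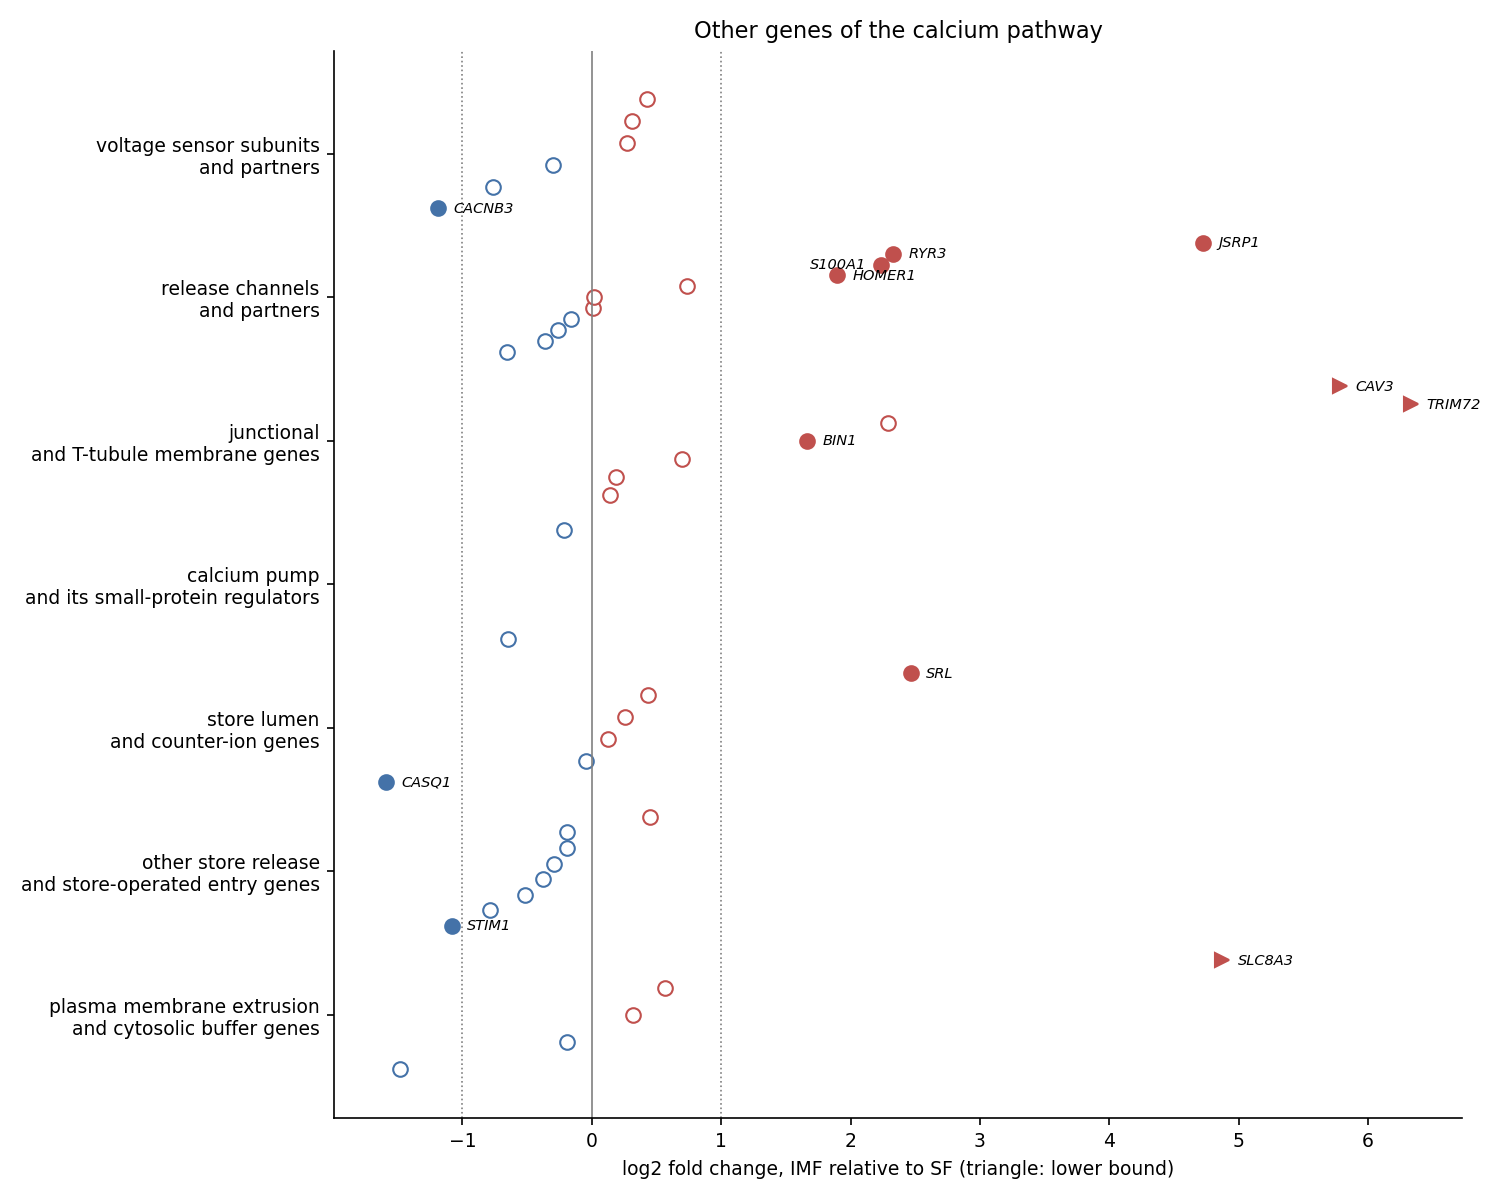
Log2 fold change of IMF relative to SF for the 45 tested genes of 7 pathway groups; red marks are higher and blue marks lower in IMF, filled where the gene passed, with triangles for lower bounds against 3 counts per clone and dotted lines at 1 and -1. The 9 filled red genes fall among the release, junction, store and plasma membrane groups, and the 3 filled blue genes are CACNB3, CASQ1 and STIM1.

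Across the 8 clones, the genes most like *RYR1* in log2 CPM, among 15870 with a mean of at least 1 CPM in a group, were *FRMD4B*, *GFM1* and *NASP* (Pearson's r = 0.998, 0.998 and 0.997). *FRMD4B* had 186 to 264 counts in the IMF clones and 0 to 3 in the SF clones, whereas *GFM1* had 35.6 to 36.3 CPM in the IMF clones against 21.0 to 23.4. With *RYR1*, 66 genes had an r of at least 0.99. The 8 points fall in the 2 depot groups. For *JPH2*, which varied among the SF clones, only *CD200* reached 0.99 (r = 0.994), followed by *ST5* (0.979) and *CCDC28B* (0.978). *CD200* had 14.8, 5.81, 3.41 and 7.11 CPM in SF1 to SF4 and 3.76 to 4.35 CPM in IMF, in the same order over the SF clones as *JPH2*. These correlations describe 8 clones and carry no test.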

How the data were processed

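mRNA libraries of 4 IMF and 4 SF clones were sequenced in paired-end reads. The authors deposited raw read counts per gene and clone, made with Trimmomatic 0.39 and featureCounts 2.0.2 on ARS-UCD2.0; the paper names HISAT2 as the aligner and the submitters' processing notes name STAR 2.7.11a. The paper describes the libraries as non-stranded and the labels describe dUTP second strands. The authors also deposited gene lengths, group means and their own DESeq2 comparison, and the means and comparison were not used. The paper speaks of TPM, but the deposited values are whole counts. TPM here was computed from the counts and the deposited lengths.

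One row without a gene name (0.0148% to 0.0209% of counts) was removed. Of 18871 genes, 18339 reached 20 counts over the 8 clones and entered edgeR 4.0.16, run in R 4.3.3 (TMM, two-sided quasi-likelihood test, Benjamini-Hochberg adjustment over all genes tested, no covariate). A standard error is the absolute log2 fold change divided by the square root of the F statistic. Where a group's 4 clones all had 3 counts or fewer, the fold is a lower bound computed with 3 counts in each of them. Total counts ranged from 19654917 to 29308882 per clone. Pairs of clones of 1 group differed by more than counting noise (chi-square per degree of freedom from 44.1 to 132). The scripts were tested on simulated counts.

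The members and gene lists were chosen with earlier results of these data known. The genes named were the 10 members, every pathway-list gene that passed, the 2 most abundant others in each pathway list, paralogues in the shares, and the 3 genes most like *RYR1* and *JPH2*. One gene that this rule names is not reported here. Marker genes and genes overlapping a member fall outside the rule; those named were chosen after their values were seen. *CACNA1C*, *TRDN*, *SLN*, *MRLN* and others of the 57 pathway genes were not analysed here. Loci came from RefSeq (ARS-UCD2.0). Alternatives were DESeq2 1.42.0, limma-voom (limma 3.58.1), RLE or total-count scaling, other filters, glmTreat, a block for the clone number, and fits with 1 clone removed.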

Additional observations from a re-analysis of the deposited data

Results flagged for a closer look

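In groups of 4 clones, a clone stood apart when its gap to the nearest other, as a share of the group's range, exceeded Dixon's 95% critical value; of 29 groups examined, 6 met this. Chance gives about 1 in 20, a rate that does not apply to the 3 of the 6 whose other clones were all at 0, where the gap is the whole range; 2 of these 3 rest on the same single count. *CACNG1* in IMF2 (0.523 CPM, 16 counts) stood apart from 3 IMF clones at 0. *JPH1* in SF1 (0.0513 CPM) rested on 1 count, as did its share of the TPM of *JPH1* and *JPH2* there (0.00852%). The share of *RYR1* among ryanodine receptors was 69.6% in IMF2 against 47.9% to 48.3% in the other IMF clones, beside the low *RYR2* level of that clone. The share of *CASQ2* among calsequestrins was 20.1% in SF2 against 1.60% to 3.28% in the other SF clones. The share of *CACNB1* among beta subunits was 19.1% in SF1 against 24.3% to 25.3%, beside 41.0 CPM of *CACNB3* in SF1.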

How the results depend on the processing

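Of the 10 genes, *CACNA1S*, *RYR1*, *JPH1* and *ATP2A1* passed in the same direction in all 16 alternatives. Between 4 (glmTreat) and 7 (DESeq2) of the 10 passed across the alternatives, and 5 to 6 when 1 clone was left out. With glmTreat, 631 genes in place of 1618 passed overall and 7 of the pathway genes (7 higher, 0 lower) in place of 12 (9 higher, 3 lower), while *STAC3* (adjusted p = 0.748) and *CASQ2* (0.424) did not pass. With 1 clone left out, 1332 to 1643 genes and 11 pathway genes passed, the latter as 8 higher and 3 lower, but 10 and 1 without SF1, where *TMEM38A* passed (log2 fold change 1.14, adjusted p = 0.0268) and *CACNB3* and *STIM1* did not. *CACNB1* changed sign without SF3 (log2 fold change -0.0116, adjusted p = 0.948). Scaling by total counts alone moved the median over all genes, on the log2 scale, from -0.03 to 0.12 and the share of calls that were higher in IMF from 54.2% to 66.7%, against 75.4% with glmTreat; *STIM1* then missed the fold threshold (-0.94). Clones of the same number had correlated deviations of 0.0137 to 0.216 (mean 0.0860), with 1 of 4 pairs over 0.1. Clones of different numbers had -0.143 to 0.171 (mean -0.0292), with 1 of 12 pairs over 0.1. In all, 4 of 8 clones correlated best with their own number. These values do not settle whether the numbers pair clones, and the main fit did not pair them. Under the replicate block (clone number), 1489 genes passed, 1356 of them among the 1618, and no call among the 10 genes changed (6 higher, 0 lower). The 5 paralogue shares kept their direction from counts in place of TPM and with 1 clone left out. *CACNG1* could not be tested under the stricter filter or without IMF2, SF1 or SF2. Counts of 3 or fewer in SF limit *CACNA1S* and *JPH1* to bounds, and *CACNG1* is given no fold. The labels do not tie clones to steers, so p-values measure the spread between these clones.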
